A study of Homo sapiens with 18 samples.

Results

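RNA-seq of the cisplatin-resistant ovarian cancer line Acis (A2780cis in the labels) was compared with that of its sensitive parent A2780 in the treated state, that is, after both lines had been incubated with 200 µM cisplatin for 3 h. The comparison rests on 6 of the 18 samples of the series, 3 libraries of Acis cisplatin and 3 of A2780 cisplatin, chosen by their labels. It addresses which transcripts separate the resistant from the sensitive cells while both carry fresh platinum damage. The dose was equal but the damage was not, since the study measured more damage in A2780 than in Acis at this dose. The 6 untreated libraries, 3 of each line and also listed at 3 h, were used to ask whether a difference seen after cisplatin was already there before it. Each line stands for 1 established cell line, so a difference between them is a difference between these 2 cultures, and Acis cells were also given 1 µM cisplatin every 3 passages during growth, which A2780 cells were not. Whether a transcript differed because of resistance, of the unequal damage, of that maintenance dose or of drift between the lines cannot be told apart.

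Cisplatin enters cells and forms adducts mostly between neighbouring purines, and these block RNA and DNA polymerases until nucleotide excision repair removes them or translesion polymerases bypass them. Cells under such stress switch on immediate-early genes through existing transcription factors, stabilize p53 and start the integrated stress response. Resistant cells are known for altered uptake and efflux of the drug, more glutathione, changed repair and blunted cell death, and the genes of these processes are described by group here, together with the lineage, matrix and immune genes in which the lines differed most.

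The 6 cisplatin libraries held between 4460460 and 4720732 counted reads, and all 12 RNA libraries between 4130644 and 5072216. Of the 23622 genes listed, 15760 had enough counts to be tested. Replicate libraries within the treated groups differed by 0.778 to 1.53 times the counting noise. The pairs below 1 were A2780 replicates 2 and 3 and Acis replicates 1 and 2, which differed by less than the sampling noise. Removal of duplicate reads can lower the scatter of counts, no files were identical, so no library was dropped from either group, with the closest pair of each treated group merged as an alternative. The labels do not say whether replicates were separate cultures, so p-values measure the spread between these libraries, which may be technical. Of the 12 markers fixed for ovarian carcinoma, only KRT18 and KRT8 were tested, EPCAM had 13 reads in all in treated A2780 and 2 in treated Acis and FOLR1 had 12 and 1, while KRT7, KRT19, MUC16, PAX8, WT1, MSLN, CDH1 and ESR1 have no row in the table used here. The label of an ovarian carcinoma is therefore not borne out by these markers in either line. None of the 15 leukocyte, endothelial and erythroid markers passed the filter. CD79A had 27 and 7 reads, CD68 17 and 13, CD14 9 and 5 and HBA1 6 and 1 in treated A2780 and treated Acis, and the other 11 have no row.

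After cisplatin, 1147 genes (7.28% of those tested) were higher in Acis and 1882 (11.9%) were lower, 19.2% in all. A gene was called when its adjusted p-value was below 0.05 and its log2 fold change was 1 or more in size, and these limits hold throughout. Lower calls made up 62.1% of the total. At the adjusted p-value alone 5024 genes were higher (31.9%) and 4910 lower (31.2%), 63% in all, so that 49.4% of them were lower. The 3 libraries of one line all lay above those of the other for 33.5% of genes with Acis higher and for 33.2% with Acis lower, the background against which statements on groups that do not overlap have to be read. In these bulk libraries, fewer cells with a transcript and less of it in each cell cannot be told apart. The differences were often close to presence against absence. The 3 treated Acis libraries together had no read for 287 of the lower genes and at most 3 reads for 516, and the 3 treated A2780 libraries had none for 40 of the higher genes and at most 3 for 123. A log2 fold change of 4 or more in size was reached by 33.4% of the lower and 19.5% of the higher genes. Long non-coding RNA genes made up 25.5% of the lower calls, 15.3% of the higher calls and 11.9% of all tested genes.

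Most of these differences were also present before treatment. Of the 1147 higher genes, 910 (79.3%) were also called higher between the untreated lines, where 1101 were called (6.99% of those tested, and 19.1% in both directions together). Of the 1882 lower genes, 1558 (82.8%) were also called lower, out of 1917 (12.2%). The contrasts before and after cisplatin share no library. Only the lncRNA genes PAPOLA-DT and ENSG00000286116, named after their values were seen, were called in opposite directions, both lower in Acis after cisplatin and higher before it. Whether the line difference itself changed with treatment was tested for each gene as an interaction term, for which only the adjusted p-value was used. It was more positive after cisplatin for 2130 genes (13.5%) and more negative for 877 (5.56%), 19.1% in all. The balance depended on the scaling, since total counts as library size gave 1477 more positive and 1581 more negative, with the median interaction over all genes moving from 0.03 to -0.03. The smaller count also depended on single libraries, with 535 genes without Acis control replicate 1 and 556 without Acis cisplatin replicate 2, and DESeq2 gave 1118 and 330. Among the called genes, 969 of the higher (84.5%) and 1747 of the lower (92.8%) passed no interaction test. Of the 237 genes called higher only after cisplatin, 94 had an interaction, and of the 322 called lower only after cisplatin, 61 did, so that for the others a change of the difference was not shown.

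**Figure D1:**
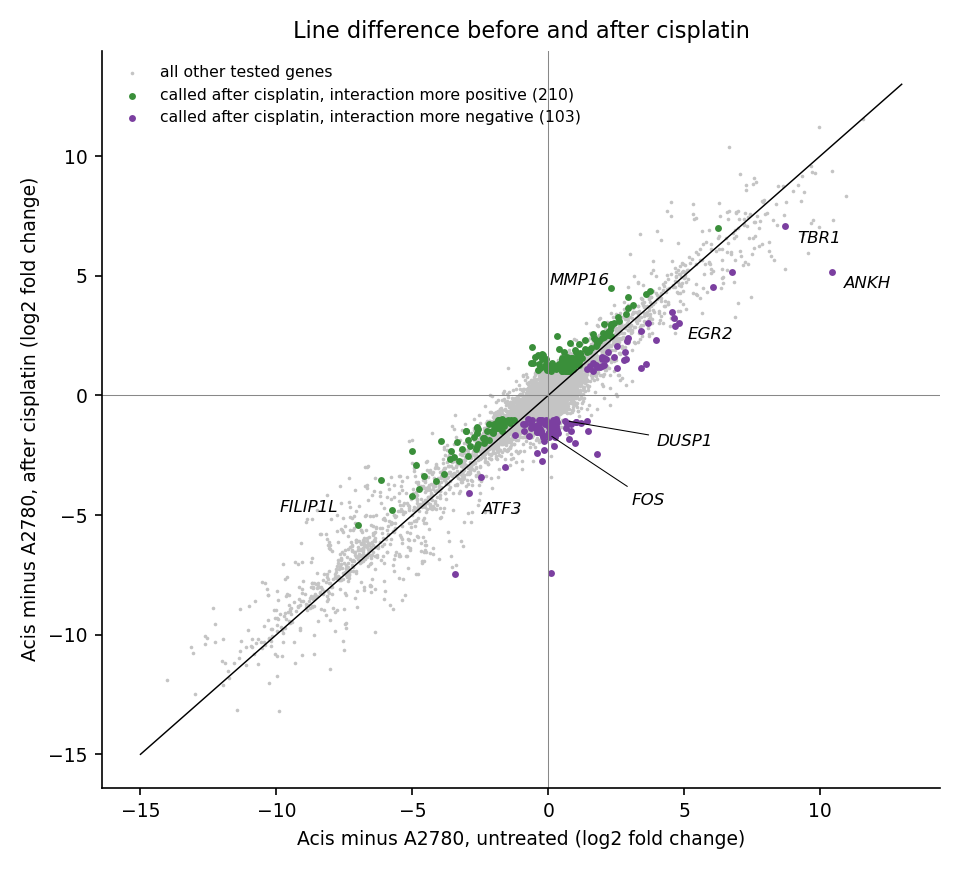
Log2 fold change of Acis against A2780 in untreated cells (x axis) and after cisplatin (y axis) for the tested genes, without 1 gene that is not described. Coloured points are genes called after cisplatin with an interaction, 210 more positive (green) and 103 more negative (purple), and the diagonal marks equal differences. Most points follow the diagonal, FOS, DUSP1 and ATF3 lie below it and MMP16 and FILIP1L above. Fitted values of genes with no reads in 1 line depend on the prior count.

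Among the largest lower differences by fitted log2 fold change, an order that depends on the prior count where a line has no reads, several genes had many reads in each A2780 library and none in treated Acis. ARHGAP28 (chr18:6729716-6915716, GRCh38), a GTPase-activating protein, had 1159, 1174 and 1198 normalized counts in the A2780 cisplatin libraries and 0 in all 3 of Acis. It was at least 1210-fold lower in Acis, taking 3 reads over the group as the limit that a count of 0 allows (adjusted p = 1.96e-27, edgeR). MEF2C, a MADS-box factor of muscle and neural crest, had 679, 703 and 733 normalized counts against 0 in each Acis library and was at least 722-fold lower. The intergenic lncRNA ENSG00000285958 on chromosome 10 was at least 1180-fold lower, ZPLD1 at least 532-fold, the kainate receptor subunit GRIK1 at least 439-fold and the kinase ALPK2 at least 372-fold. All 6 genes were also called lower in untreated Acis, where their mean level was between 0 and 1.44 normalized counts.

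In the other direction, INHBA, which encodes the subunit of activin A, had 1041, 1101 and 1066 normalized counts in treated Acis and 0, 0 and 0.982 in treated A2780. The ratio was 3330 with a counting interval (95%) of 598 to 132000, since it rests on 1 read in A2780, and the log2 fold change was 11.23 (SE 0.17, adjusted p = 4.37e-28). FILIP1, a filamin-binding protein, had 899, 949 and 917 against 1.87, 0 and 3.93, a ratio of 479 (220 to 1310). The scavenger receptor and fatty acid transporter CD36 had 512, 506 and 496 against 1.87, 0 and 0, a ratio of 787 (218 to 6500). Similar patterns were seen for the glycosyltransferase GALNT14 (ratio 690, interval 191 to 5700), the synaptic adhesion protein LRRTM3 (646, 179 to 5340), the tryptophan-degrading enzyme TDO2 (669, 120 to 26500), the transcription factor NFATC1 (528, 146 to 4360) and the sulfotransferase CHST15 (534, 95.5 to 21100). GABRA5, a GABA receptor subunit, and the lncRNA ENSG00000287853 had no read in treated A2780 and were at least 172-fold and 391-fold higher in Acis. All 10 were called higher in the untreated state as well, and none passed the interaction test (adjusted p from 0.0796 for GABRA5).

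Interferon-stimulated genes were lower in treated Acis as a group. Interferons signal through a complex that includes STAT2 and IRF9 and binds the interferon-stimulated response element (ISRE) in target promoters. Of the 20 tested genes of the list, 13 were called lower and 0 higher by edgeR (all tested genes 11.9% and 7.28%), the same counts as by DESeq2. The list had a median log2 fold change of -1.41 against -0.001 for all tested genes. At an unadjusted p-value under 0.05, 16 were lower and 3 higher. BST2 (tetherin, chr19:17402939-17405630), which holds budding virus at the cell surface, had 457, 452 and 446 normalized counts in treated A2780 and 0 in each treated Acis library, so that it was at least 463-fold lower (adjusted p = 2.04e-22). IFI27 had 145, 157 and 144 against 4.8, 2.95 and 3.93 (log2 fold change -5.21, SE 0.20), and the membrane protein IFITM1 156, 166 and 159 against 3.84, 4.92 and 3.93 (log2 fold change -5.21, SE 0.18). For both genes every A2780 library lay far above every Acis library. The groups were apart in this direction for 16 of the 20 and for 33.2% of all tested genes. Among the factors that carry the signal, IRF1 was called lower (788, 744 and 700.0 against 277, 277 and 273, log2 fold change -1.43, SE 0.06), as were STAT2 (-1.46) and IRF9 (-2.21). The median of the list was -1.36 between the untreated lines, and only ISG15 of its 20 members passed the interaction test.

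The promoters of BST2 and IFI27 are shown because they carry the element that defines this gene group. Each sequence runs from 250 bases before to 50 after the RefSeq start (GRCh38.p14), and capitals mark matches to the ISRE pattern, a pair of TTTC blocks with 2 bases of any kind between them, on either strand. The IFI27 window starts further 3′ than the annotated gene start used for expression.

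BST2, chr19:17405581-17405880, minus strand: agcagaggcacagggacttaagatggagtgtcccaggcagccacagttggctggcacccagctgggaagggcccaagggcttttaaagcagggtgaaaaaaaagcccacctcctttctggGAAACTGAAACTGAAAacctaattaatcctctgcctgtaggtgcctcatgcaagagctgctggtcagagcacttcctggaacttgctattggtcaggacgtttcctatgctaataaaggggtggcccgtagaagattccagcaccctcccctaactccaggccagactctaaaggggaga

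IFI27, chr14:94110486-94110785, plus strand: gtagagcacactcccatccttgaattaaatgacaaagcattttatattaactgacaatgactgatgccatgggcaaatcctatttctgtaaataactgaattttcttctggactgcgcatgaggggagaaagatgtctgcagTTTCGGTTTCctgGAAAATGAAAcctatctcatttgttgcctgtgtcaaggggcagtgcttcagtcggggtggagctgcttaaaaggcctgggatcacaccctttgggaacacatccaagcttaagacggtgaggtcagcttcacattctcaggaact

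Of the 16 listed genes with a promoter in the RefSeq table, 12 (75%) held at least 1 match, against 3.65% of the 27305 promoters of that length and 2.67% of those of tested genes. BST2 and IFI27 held 2 matches each, and those of BST2 overlap. Over all genes called lower in treated Acis, 5.36% of 1231 promoters held a match, against 2.15% of 698 for genes called higher and 2.33% of 8802 for genes not called. The treated A2780 cells had an ATAC-seq peak over all 300 bases of the BST2 window with a fold enrichment of 5.64 over local background, and the treated Acis list had none. No list held a peak in the IFI27 window. Other lower members, such as IFITM1, STAT2 and IRF9, had a peak near the start in both treated lists, so BST2 does not stand for the group. A match is a string of letters and does not show that a factor was bound.

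Genes of MHC class I antigen presentation, which cut proteins, carry the peptides into the endoplasmic reticulum and display them, were lower in treated Acis too. By edgeR 7 of 15 tested were called lower and 0 higher, where 11.9% and 7.28% of all tested genes were. DESeq2 gave the same counts, 12 were lower and 2 higher at an unadjusted p-value under 0.05, and the median was -0.90. The immunoproteasome subunit PSMB9 had 211, 200.3 and 188 normalized counts in treated A2780 and 3.84, 4.92 and 5.89 in treated Acis (log2 fold change -5.32, SE 0.18). The peptide transporter TAP1 had 885, 835 and 851 against 94, 105 and 111 (-3.05, SE 0.06), and NLRC5, the activator of class I promoters, had 752, 662 and 667 against 48.9, 48.2 and 62.8 (-3.70, SE 0.09). PSMB9 and TAP1 overlap in the annotation, and the reads were counted with strand. HLA-B (-2.11, SE 0.06) and HLA-E (-1.22, SE 0.06) were lower too, although HLA genes have near-identical copies and their counts are uncertain. In all of these genes the lowest treated A2780 library lay above the highest treated Acis library, as in 12 of the 15 and in 33.2% of all tested genes. The list had a median of -1.05 between the untreated lines, and 3 members, ERAP1, ERAP2 and CANX, passed the interaction test, each more positive after cisplatin.

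Transcription factors of embryonic patterning distinguished the lines sharply. HOX genes encode positional identity along the body axis. Of 19 tested, 10 were called lower in treated Acis and 2 higher (all tested genes 11.9% and 7.28%), with a median log2 fold change of -2.01. The lower ones were 6 neighbouring genes of the HOXB cluster from HOXB4 to HOXB9 and 4 of the HOXD cluster, and the higher ones HOXB13 and HOXC5. HOXB9 had 250.3, 237 and 264 normalized counts in treated A2780 against 5.76, 1.97 and 4.91 in treated Acis (-5.85, SE 0.20). HOXB8 had 90, 76.5 and 78.5 against 3.84, 2.95 and 3.93 (-4.47, SE 0.23), HOXB7 63.7, 44.5 and 63.8 against 6.72, 4.92 and 3.93 (-3.43, SE 0.27), HOXB6 126, 107 and 127 against 14.4, 16.7 and 15.7 (-2.93, SE 0.18), HOXB5 183, 165 and 165 against 33.6, 31.5 and 28.5 (-2.45, SE 0.12) and HOXB4 154, 154 and 178 against 37.4, 43.3 and 39.3 (-2.01, SE 0.12). Over these 6 genes of chromosome 17 the fitted difference was smallest at HOXB4 and largest at HOXB9, although the annotated extents of HOXB7 and HOXB9 overlap. HOXB13, at the far end of the same cluster, went the other way, with 56.6, 56.1 and 57.9 in treated Acis against 0.937, 0 and 0 in treated A2780, a ratio of 177 (31.4 to 7050). The 11 listed HOXA genes have no row in the table used here.

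The DLX and MSX homeobox genes, which pattern limb, face and forebrain, split into lower and higher members, 4 and 3 of the 9 tested (all tested genes 11.9% and 7.28%). DLX5 (chr7:97020396-97024950) had 559, 538 and 574 normalized counts in treated A2780 and 0 in all treated Acis libraries, at least 571-fold lower. Its neighbour DLX6 had 541, 535 and 504 against 0.959, 0 and 0, and the antisense transcript DLX6-AS1, counted on the opposite strand, 1672, 1726 and 1715 against 0, 0 and 0.982. The ratios of these 2 genes were 1620 (291 to 64100) and 5240 (941 to 207000). MSX1 had 760.2, 793 and 755 against 2.88, 3.94 and 0 (ratio 338, 164 to 842). DLX3 was higher in Acis, with 84.4, 95.4 and 114 against 4.69, 5.81 and 3.93 (log2 fold change 4.31, SE 0.22), together with DLX4 (2.19) and MSX2 (5.44). No called member of this list or of the HOX list passed the interaction test.

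Among factors of the urogenital and gonadal lineage, 6 of 12 tested were lower and 1 was higher (all tested genes 11.9% and 7.28%). PAX2, a factor of kidney and Müllerian duct development, had 867, 765 and 742 normalized counts in treated A2780 against 0.959, 0 and 0 in treated Acis (ratio 2440, 437 to 96300). SOX9 had 322, 284 and 323 against 0 in each library (at least 317-fold lower) and FOXL2, a factor of granulosa cells of the ovary, 226, 230.3 and 207 against 0 (at least 227-fold). The higher member was NR2F2 (1.54). The list median was -0.54 after and -0.51 before cisplatin.

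The promoter of FOXL2 is shown because its accessibility differed between the lines together with the transcript. It was covered over all 300 bases by a peak of the A2780 cisplatin list (fold enrichment 8.33) and by a peak of the A2780 control list (13.9), and by none in the Acis lists.

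FOXL2, chr3:138947088-138947387, minus strand: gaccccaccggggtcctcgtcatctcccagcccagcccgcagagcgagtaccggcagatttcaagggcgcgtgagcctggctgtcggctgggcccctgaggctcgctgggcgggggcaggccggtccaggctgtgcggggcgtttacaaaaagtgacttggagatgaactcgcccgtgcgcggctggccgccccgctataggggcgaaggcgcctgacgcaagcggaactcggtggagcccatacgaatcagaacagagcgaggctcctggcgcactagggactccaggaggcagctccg

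Collagens and other matrix genes differed in both directions and by large factors. Of 23 tested, 13 were called lower in treated Acis and 3 higher (all tested genes 11.9% and 7.28%), with a median of -1.89. COL6A3, a chain of collagen VI, had 1629, 1631 and 1526 normalized counts in treated A2780 and 5.76, 4.92 and 3.93 in treated Acis (log2 fold change -8.32, SE 0.10). Thrombospondin 1 (THBS1) had 1144, 1122 and 1148 against 7.68, 4.92 and 6.87 (-7.42, SE 0.11), and periostin (POSTN) 1198, 1262 and 1218 against 56.6, 50.2 and 44.2 (-4.60, SE 0.07). The list also held COL1A2 (-10.37), LAMA1 (-8.28) and COL1A1 (-5.70) among its lower members. Against these, COL12A1 and COL11A1 were higher in treated Acis, with 4196, 4273 and 4341 normalized counts against 39.4, 27.1 and 34.4 (6.98, SE 0.06, adjusted p = 1.52e-33) and 3158, 3188 and 3282 against 167, 157 and 183 (4.25, SE 0.05). COL3A1 was the remaining higher member (1.26). For all 3 the difference was larger after cisplatin than before it by the interaction test (0.73, SE 0.15, for COL12A1 and 0.67, SE 0.08, for COL11A1).

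The promoter of COL12A1 is shown as the reverse case to FOXL2, with a peak over all 300 bases in the Acis cisplatin list (fold enrichment 13.2) and the Acis control list (12.3) and none in the A2780 lists.

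COL12A1, chr6:75206004-75206303, minus strand: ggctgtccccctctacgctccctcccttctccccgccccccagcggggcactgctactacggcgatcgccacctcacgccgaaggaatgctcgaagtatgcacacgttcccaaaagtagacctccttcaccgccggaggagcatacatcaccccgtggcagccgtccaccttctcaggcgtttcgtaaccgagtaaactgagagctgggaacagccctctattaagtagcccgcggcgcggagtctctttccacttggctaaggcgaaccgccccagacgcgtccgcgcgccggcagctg

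Adhesion genes and the factors of epithelial-mesenchymal transition gave 6 lower and 3 higher members of 13 tested (all tested genes 11.9% and 7.28%). The paralogs TWIST1 and TWIST2 were exchanged between the lines. TWIST1 had 531, 574 and 553 normalized counts in treated A2780 against 1.92, 0 and 0.982 in treated Acis (ratio 566, 193 to 2750), whereas TWIST2 had 0 in every A2780 library and 98.8, 94.5 and 95.2 in Acis, at least 100-fold higher. N-cadherin (CDH2) had 373, 381 and 377 against 47, 45.3 and 55 (-2.94, SE 0.09) and the repressor SNAI2 451, 442 and 449.7 against 103, 142 and 124 (-1.87, SE 0.07). ZEB2 (-6.62) and CDH6 (-5.45) were lower as well. The keratin KRT18 was higher in Acis, at 149, 144 and 145 against 35.6, 39.7 and 30.4 (2.04, SE 0.13), while its partner KRT8, at 3.84, 1.97 and 7.86 against 24.4, 11.6 and 15.7, was lower (-1.90, SE 0.42) on few reads. OCLN was the remaining higher member (1.32).

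Receptor tyrosine kinases and growth factors, of which 30 were tested, showed 10 higher and 8 lower members (all tested genes 7.28% and 11.9%). PDGFRA, the receptor for platelet-derived growth factor on mesenchymal cells, had 615, 646 and 638 normalized counts in treated A2780 against 14.4, 14.8 and 16.7 in treated Acis (-5.36, SE 0.10), and the ephrin receptors EPHA3 and EPHA7 had 638, 676 and 661 against 2.88, 2.95 and 2.95 (-7.75, SE 0.12) and 585, 541 and 579 against 0, 0.984 and 0 (ratio 1750, 314 to 69100). The ligand PDGFC went the opposite way to its receptor, with 785, 766 and 693 in Acis against 15.9, 16.5 and 10.8 (5.68, SE 0.11). VEGFC, a lymphatic growth factor, had 326, 355 and 327 against 18.7, 23.2 and 12.8 (4.19, SE 0.13). The other higher members ranged from 1.53 for MET to 5.84 for FGFR2. No called member of this list had an interaction.

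In the TGF-beta and BMP pathway 4 of 22 tested genes were higher and 3 lower, where 7.28% and 11.9% of all tested genes were. The higher ones were the ligands INHBA, BMP2 (4.61) and BMP7 and the receptor TGFBR2 (1.14), and the lower ones included the ligand TGFB2 (-2.34) and the activin receptor ACVR2B. BMP7 had 421, 428 and 483 normalized counts in treated Acis against 85.3, 86.1 and 88.4 in treated A2780 (2.36, SE 0.08). ACVR2B had 164, 189 and 169 against 510.0, 515 and 484 (-1.53, SE 0.06), a smaller deficit than the -2.08 of the untreated lines (interaction 0.54, SE 0.10). BMPR2 passed the adjusted p-value without the fold limit (0.59, SE 0.04) and its difference was also more positive after cisplatin (0.46, SE 0.06). In the WNT pathway, which runs from Frizzled receptors to beta-catenin, 2 of 22 were higher and 5 lower. FZD2 had 140.1, 155 and 163 against 618, 633 and 622 (-2.03, SE 0.07), while FZD8 (1.07, SE 0.05) and the inhibitor DKK1 (1.13, SE 0.05) were higher. FZD7 (-1.06, and -0.99 without Acis cisplatin replicate 1) and FZD3 (-1.05) lay near the limit of 1.

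Immediate-early genes, which answer growth factor and stress signals within minutes without new protein synthesis, were lower in treated Acis more often than higher. Of 39 tested, 11 were called lower and 2, EGR2 and ARC, higher (all tested genes 11.9% and 7.28%). At the adjusted p-value alone 23 were lower and 12 higher (all tested genes 31.2% and 31.9%). The median was -0.41 against 0.17 between the untreated lines. For 25 members the line difference was more negative after cisplatin, for 2, PHLDA1 and NFKBIZ, more positive, where 5.56% and 13.5% of all tested genes were. FOS (chr14:75278826-75282230), a subunit of the AP-1 factor, had 828, 822 and 834 normalized counts in treated A2780 and 275, 273 and 261 in treated Acis, a log2 fold change of -1.62 (SE 0.05, adjusted p = 7.55e-22). The untreated libraries held 71.5 to 75 in A2780 and 68.1 to 80.9 in Acis, ranges that overlap, and the interaction was -1.62 (SE 0.13, adjusted p = 3.36e-09). The lines thus overlapped in FOS before treatment and were apart after it.

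The stress-induced repressor ATF3 had 589.6, 601 and 558 normalized counts against 33.6, 27.6 and 42.2 after cisplatin (-4.08, SE 0.09) and was already lower in untreated Acis (-2.90), with an interaction of -1.17 (SE 0.26). DUSP1, a phosphatase that inactivates MAP kinases, had 268, 298 and 307 against 149, 129 and 141 after cisplatin (-1.06, SE 0.08, and -0.9965, short of the limit, without Acis cisplatin replicate 2), whereas before it Acis was the higher line, with 65.8 to 76.3 against 39.5 to 50 (0.62, short of the limit, interaction -1.68, SE 0.17). NFKBIZ, a nuclear IκB protein, had 621, 664 and 664 against 156, 152 and 147 (-2.10, SE 0.06), a smaller deficit than in untreated cells (-2.63, interaction 0.54, SE 0.13). The matricellular genes CCN1 and CCN2, targets of YAP and SRF, were low in Acis in either state, at 9.59, 7.87 and 10.8 against 692, 709 and 714 for CCN1 (-6.21, SE 0.11) and 3.84, 2.95 and 1.96 against 235, 302 and 285 for CCN2 (-6.49, SE 0.20). Neither passed the interaction test (adjusted p = 0.578 and 0.952). The other lower members were NR4A2 (-2.98), NR4A3 (-1.25), FOSB (-1.20), EGR4 (-1.12) and MAFF (-1.04).

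**Figure D2:**
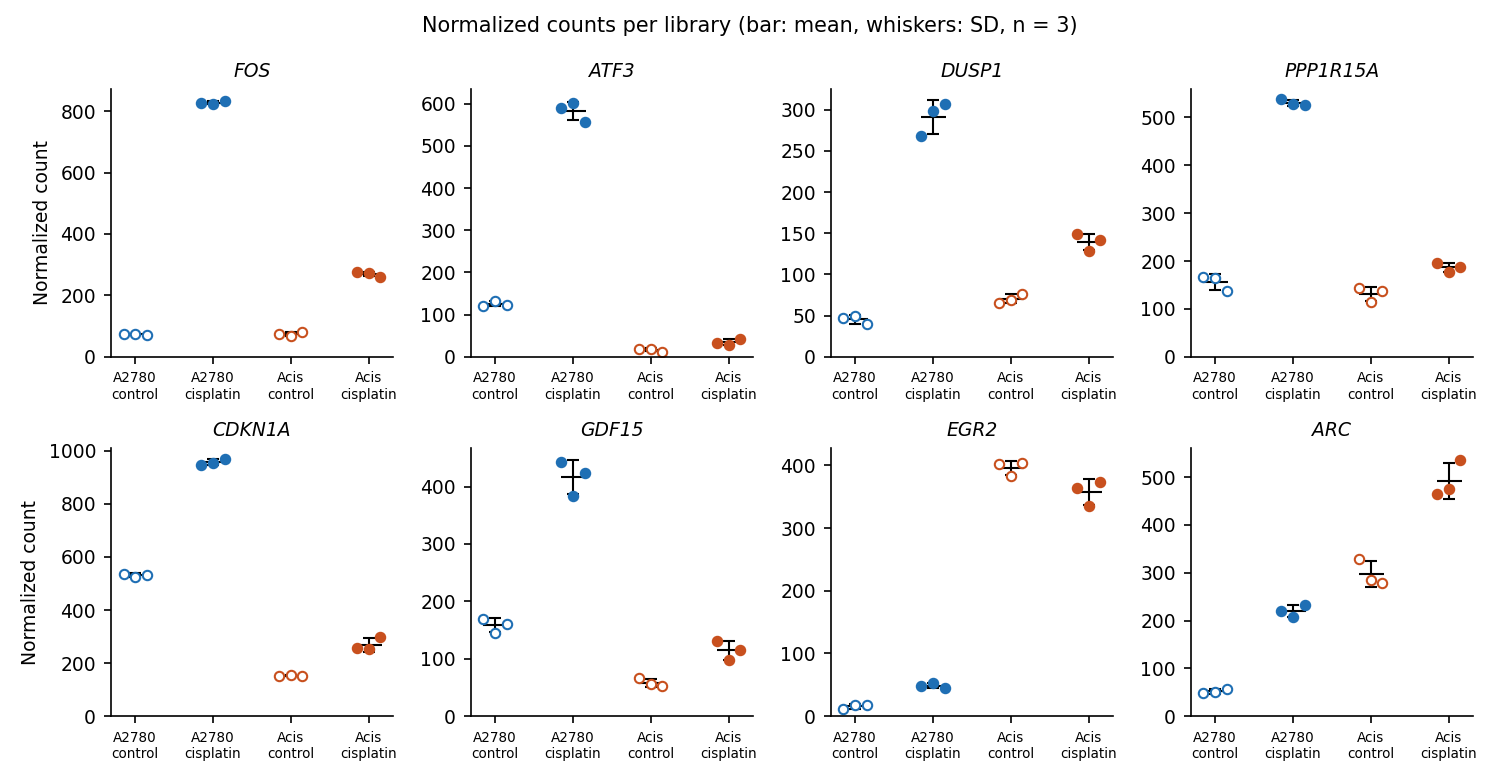
Normalized counts (y axis, from 0) of 8 genes in each of the 12 libraries, A2780 in blue and Acis in orange, untreated libraries as open and cisplatin libraries as filled points, with mean and SD (n = 3). FOS and PPP1R15A overlap between the lines before cisplatin and are apart after it, CDKN1A and GDF15 are lower in Acis in both states, and EGR2 and ARC are higher in Acis in both states.

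The FOS promoter is shown because a peak was listed there in both lines although the transcript differed after cisplatin. All 4 peak lists held a peak there, with a fold enrichment of 8.85 in A2780 and 10.5 in Acis after cisplatin. The -log10 q of MACS2 was 141 in A2780 and 73.7 in Acis. These measures go opposite ways, so which line was more accessible there cannot be told. The A2780 cisplatin peak covered all 300 bases and the Acis cisplatin peak 111 of them. No exact match to TGACGTCA, TGANTCA or the CArG box, searched on both strands, was found in these letters, so none is in capitals. Of all RefSeq promoters 1.98%, 7.76% and 1.29% held one. The search covered only these 300 bases and missed near matches, such as the printed tgacgttt for TGACGTCA. It therefore does not show that the FOS promoter lacks such elements, in variant form or outside the window.

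FOS, chr14:75278578-75278877, plus strand: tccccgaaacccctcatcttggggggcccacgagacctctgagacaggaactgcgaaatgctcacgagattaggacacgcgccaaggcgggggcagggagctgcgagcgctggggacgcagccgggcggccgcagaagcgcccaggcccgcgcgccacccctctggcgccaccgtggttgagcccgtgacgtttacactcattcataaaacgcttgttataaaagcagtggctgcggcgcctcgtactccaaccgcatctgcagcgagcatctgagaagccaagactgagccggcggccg

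Of 28 tested p53 targets, 8 were called lower in treated Acis and 2, PMAIP1 (1.19) and FAS (1.09), higher, with a median of -0.33. Of all tested genes 11.9% were called lower and 7.28% higher, and the higher count of this list is near that share. CDKN1A (chr6:36676460-36687337), which encodes the cell cycle inhibitor p21, had 947, 955 and 969 normalized counts in treated A2780 and 255, 253 and 298 in treated Acis (-1.83, SE 0.05, adjusted p = 2.30e-22). Its deficit was of the same size in untreated cells (-1.80, interaction adjusted p = 0.89). The stress cytokine GDF15 had 443, 384 and 423 against 131, 97.4 and 115 (-1.86, SE 0.08), the metabolic regulator SESN2 850.2, 810.0 and 836 against 304, 324 and 329 (-1.38, SE 0.05) and GADD45A 343, 328 and 358 against 105, 105 and 94.3 (-1.76, SE 0.08). TP53INP1, a cofactor of p53 in cell death, had 159, 183 and 198 in treated A2780 and no read in any Acis library, treated or not, so that it was at least 184-fold lower. BBC3, which encodes the BH3-only protein PUMA, had 273, 256 and 264 against 104, 91.5 and 103 (-1.41, SE 0.09). Of the 10 called targets, PMAIP1 alone passed the interaction test, and over the list 4 were more positive and 4 more negative after cisplatin.

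Of 21 members of the BCL2 family and the caspases, 2 were called lower, BBC3 and BMF (-2.45), and 2 higher, PMAIP1 and CASP10. Over all tested genes 11.9% were called lower and 7.28% higher. CASP10 had 48, 49.2 and 47.1 normalized counts in Acis against 5.62, 6.77 and 5.89 in A2780 (2.96, SE 0.24). BAX (-0.55, SE 0.06), BOK (0.72, SE 0.06) and BCL2L2 (0.64, SE 0.06) differed at the adjusted p-value with folds below the limit. Heat shock and unfolded protein response genes, which restore protein folding, included 4 lower and 0 higher calls among 19 by both edgeR and DESeq2, with 11 lower and 1 higher at an unadjusted p-value under 0.05. PPP1R15A (GADD34), which restarts translation after eIF2α phosphorylation, had 538, 528 and 525 in treated A2780 against 196, 178 and 187 in treated Acis (-1.51, SE 0.06), but 138 to 167 against 114 to 143 in untreated cells, where it was not called, with an interaction of -1.25 (SE 0.12). CHAC1, which degrades glutathione, had 399, 397 and 416 against 127, 106 and 102 (-1.85, SE 0.07) and was as low before treatment (-1.71). ASNS (-1.31) and VLDLR (-1.70, SE 0.08) made up the rest. DDIT3 (CHOP) was short of the fold limit at -0.67 (SE 0.08) and at 0.05 in untreated cells, with an interaction of -0.73 (SE 0.13).

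Repair genes differed by small amounts. Of 29 tested genes of nucleotide excision repair, which removes platinum adducts, edgeR and DESeq2 called 0 in either direction, while 10 were higher and 11 lower at the adjusted p-value alone and also at an unadjusted p-value under 0.05. Of all tested genes, 31.9% were higher and 31.2% lower at the adjusted p-value alone. The smallest and largest log2 fold changes were -0.89 for ERCC5 and 0.54 for ERCC2. ERCC2, a helicase of TFIIH, had 735, 770.5 and 806 normalized counts in treated Acis against 568, 498 and 522 in treated A2780 (SE 0.05), and the nuclease gene ERCC4 (XPF) 400.1, 388 and 389 against 289, 275 and 286 (0.47, SE 0.06). In the other direction stood CUL4A, a ubiquitin ligase scaffold (-0.49, SE 0.04), the TFIIH subunit MNAT1 (-0.68, SE 0.08) and the damage sensor DDB2 (-0.40, SE 0.06). The groups of each of these 5 genes, picked for the smallest adjusted p-values of the list, did not overlap. Of the 29, 8 did not overlap with Acis higher and 11 with Acis lower, against 33.5% and 33.2% of all tested genes. The median of the list was -0.04.

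In mismatch repair, whose loss is known to raise tolerance of platinum adducts, MLH3 was called higher, at 343, 351 and 361 against 132, 129 and 147 (1.37, SE 0.07). MSH6 was at 911, 923 and 985 against 1296, 1334 and 1318 (-0.49, SE 0.04). Among 28 Fanconi anemia and homologous recombination genes, which repair crosslinks, edgeR and DESeq2 called 0, while at the adjusted p-value alone and at an unadjusted p-value under 0.05 14 were higher and 4 lower. Over all tested genes 31.9% were higher and 31.2% lower at the adjusted p-value alone. FANCM had 274, 293 and 242 against 161, 139 and 189 (0.72, SE 0.09), BARD1 376, 383 and 328 against 254, 270.0 and 249 (0.49, SE 0.06) and FANCC 457, 439.9 and 457 against 322, 318 and 329.9 (0.48, SE 0.05). Of these 28 genes, 10 had a more positive line difference after cisplatin and 0 a more negative one, where 13.5% and 5.56% of all tested genes did. Among the 10 were FANCM (0.45, SE 0.12) and BARD1 (0.28, SE 0.09), of which BARD1 lost the interaction under 11 of the alternatives tried. Of 13 translesion synthesis genes, by which replication passes an adduct, 0 were called by either tool, 7 were higher and 1 lower at the adjusted p-value alone, and 8 and 1 at an unadjusted p-value under 0.05. REV3L, the catalytic subunit of polymerase zeta, had 653, 662 and 623 in treated Acis against 315, 344 and 349.5 in treated A2780, a log2 fold change of 0.94 (SE 0.05), against 0.46 between the untreated lines (interaction 0.48, SE 0.07). HLTF (0.52, SE 0.04) and SHPRH (0.37, SE 0.06), ligases of PCNA, differed by 0.12 and -0.07 before treatment and had interactions of 0.41 and 0.45. In this list 7 members had a more positive and 1 a more negative difference after cisplatin. Gene length moved with these counts, as the median length was 89561 bp for the translesion list, 47794 bp for the Fanconi anemia and recombination list and 5822 bp for the immediate-early list, against 24251 bp for all tested genes. Of all genes of 30 to 100 kb with at least 50 counts, 27.6% had a more positive difference after cisplatin and 1.86% a more negative one. The part of gene length in the list counts was not tested.

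Transporters of platinum and drug efflux pumps gave 1 higher and 2 lower calls among 20, shares near those of all tested genes (7.28% and 11.9%). ABCG2 was the higher gene (1.64). LRRC8C, a subunit of the volume-regulated anion channel, had 9.59, 10.8 and 6.87 normalized counts in treated Acis against 68.4, 69.7 and 73.6 in treated A2780 (-2.94, SE 0.19), and ABCC6 13.4, 10.8 and 11.8 against 75, 57.1 and 71.7 (-2.49, SE 0.20). LRRC8B, a neighbour of LRRC8C on chromosome 1, was at 190.0, 215 and 190.5 against 319, 306 and 322 (-0.67, SE 0.07). The efflux pump ABCC1 (MRP1) was modestly higher, at 944, 947 and 1002 against 719.9, 709 and 667 (0.46, SE 0.04), and so was the cation exporter SLC47A1 (0.77, SE 0.08), both below the fold limit. The genes SLC22A2, SLC22A3 and ABCB1 have no row in the table used here.

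Glutathione and metallothionein genes, which bind platinum or the oxidants it raises, included 4 lower and 0 higher calls among 23 by both tools, with 11 lower and 4 higher at an unadjusted p-value under 0.05. GPX8 had 204, 199.8 and 173 against 429, 476 and 425 (-1.20, SE 0.07), GPX3 had no read in treated Acis and 11.2, 15.5 and 16.7 in treated A2780 (at least 14.8-fold lower), and GSTO2 (-1.75) and GSTM2 (-1.29) were the others. The catalytic subunit of glutathione synthesis, GCLC, was higher below the limit (395, 419 and 407 against 257, 296 and 288, 0.54, SE 0.06), and its modifier GCLM was lower (235, 253 and 216 against 329, 346 and 387, -0.59, SE 0.08), so that the subunits of the same enzyme moved apart. Targets of NRF2, a transcription factor of the oxidative stress response, included 2 higher and 2 lower calls among 21, shares near those of all tested genes (7.28% and 11.9%). OSGIN1 had 196, 207 and 195 against 34.7, 27.1 and 30.4 (2.69, SE 0.11), and AKR1C2 was higher too (2.19). ME1, the malic enzyme, had no read in Acis against 104, 107 and 111 in A2780 (at least 110-fold lower), and heme oxygenase HMOX1 had 133, 152 and 166 against 326, 337 and 346 (-1.16, SE 0.07). The cystine transporter SLC7A11 was at 208, 231 and 201 against 406, 427 and 436, a log2 fold change of -0.98 (SE 0.06) just inside the limit, and NQO1 at -0.84 (SE 0.06).

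Proliferation genes differed little. Among 20 genes of replication licensing and 20 of G2/M and mitosis, edgeR and DESeq2 called 0 in each. At an unadjusted p-value under 0.05, 3 licensing genes were higher and 8 lower, and 9 mitotic genes were higher and 2 lower. CCNE2, the cyclin of S phase entry, had 391, 393 and 363 normalized counts in treated Acis against 194, 216 and 221 (0.86, SE 0.06), while CCNE1 was at 365, 344 and 339 against 469.6, 532 and 499 (-0.52, SE 0.05). MKI67 had 3941, 3944 and 4204 against 3225, 3074 and 3121 (0.36, SE 0.03) and TOP2A 1896, 1950.3 and 1926 against 1356, 1501 and 1472 (0.42, SE 0.03). The medians of the lists were -0.01 and 0.07.

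The 7 genes of the study's real-time PCR (ARC, EGR2, MYLIP, OSGIN1, RHOV, SNAI1 and TBR1) were chosen by the study from these samples for being higher in untreated Acis and rising with cisplatin in A2780, so their direction is no independent evidence. After cisplatin 6 were called higher in Acis and SNAI1 fell short of the fold limit (0.71, SE 0.10). TBR1, a T-box factor of cortical neurons, had 1058, 1031 and 1033 normalized counts in treated Acis and 5.62, 7.74 and 9.82 in treated A2780 (7.06, SE 0.10). EGR2 had 364, 335 and 374 against 47.8, 52.3 and 44.2 (2.89, SE 0.09), MYLIP, a ligase for the LDL receptor, 171, 183 and 210.1 against 22.5, 25.2 and 20.6 (3.04, SE 0.14) and the synaptic gene ARC 465, 476 and 536 against 220.3, 207 and 232 (1.16, SE 0.07). RHOV was at 111, 95.4 and 102 against 52.5, 40.6 and 40.3 (1.21, SE 0.15). All 7 had a smaller difference after cisplatin than before it, with interactions from -1.99 for SNAI1 to -0.73 for OSGIN1. The same selection favours a difference that shrinks with cisplatin, so these interactions are no independent evidence either. The interaction of OSGIN1 was lost under 14 alternatives and that of RHOV under 8, and TBR1 lost it without A2780 cisplatin replicate 3 (-1.44), A2780 control replicate 1 (-1.44) or A2780 control replicate 3 (-1.54).

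Outside the lists, the interaction was most negative in ANKH, a pyrophosphate transporter, which had 6.56, 3.87 and 1.96 normalized counts in treated A2780 and no read in untreated A2780, against 161, 152 and 149 in treated Acis (ratio 37, 21.4 to 69.9). It was most positive in FILIP1L, at 14.4, 10.8 and 9.82 in treated Acis against 515, 489 and 509.6 (-5.42, SE 0.11, interaction 1.57, SE 0.36), followed by the secreted protein gene CRISPLD1 (-3.36, SE 0.16, interaction 1.20, SE 0.34, and 0.94, no longer passing, without Acis cisplatin replicate 2). The metalloproteinase MMP16 was higher in treated Acis, with 329, 344 and 311 against 18.7, 21.3 and 16.7 (4.11, SE 0.11), and untreated A2780 had more of it (53.8 to 59.7) than treated A2780. The p53-related lncRNA PURPL was lower (93.1, 97.4 and 92.3 against 356, 313 and 348, -1.85, SE 0.08) by less than in untreated cells (-2.95). The unclassified transcript ENSG00000280347 on chromosome 7 had 265, 272 and 243 against 121, 110.3 and 109 after cisplatin (1.19, SE 0.09), while its untreated ranges of 164 to 192 and 148 to 180.0 overlapped.

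**Figure D3:**
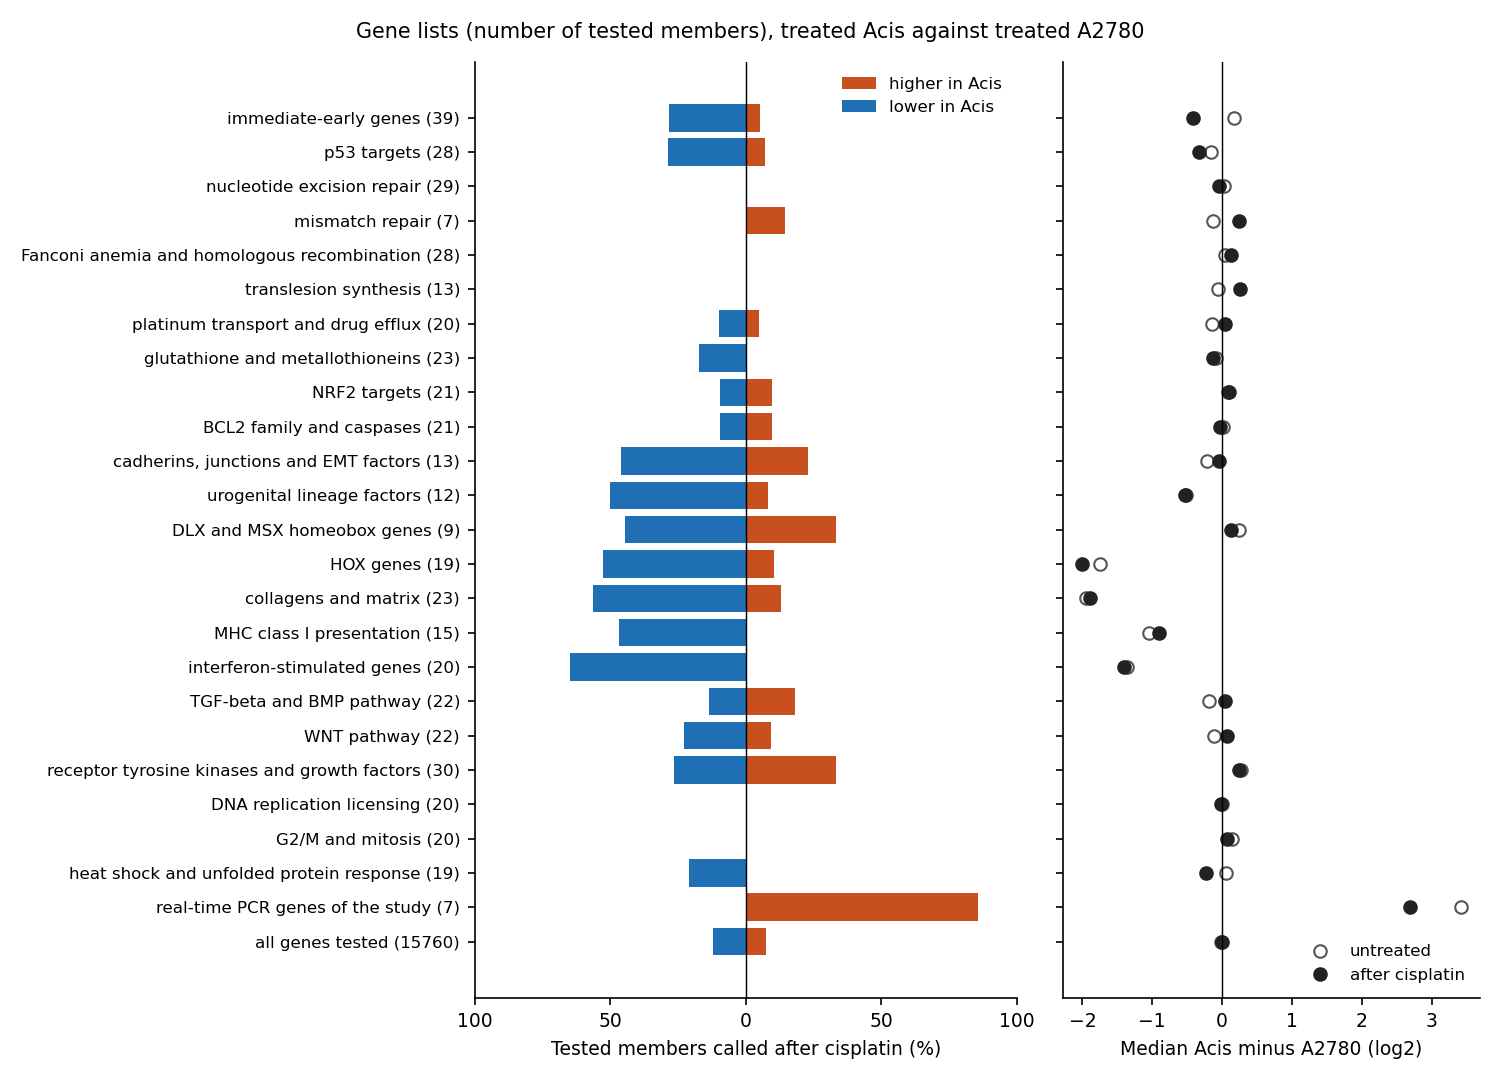
Share of tested members (number in brackets) called higher (orange) or lower (blue) in treated Acis for each gene list of at least 7 tested members and for all tested genes (left, percent), and the median log2 fold change of Acis against A2780 before (open) and after cisplatin (filled, right). The lists of interferon-stimulated genes (13 of 20 lower) and collagens and matrix (13 of 23 lower) have the largest shares of lower calls, and the immediate-early list has a median of 0.17 before and -0.41 after treatment.

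The differences were not spread evenly over the genome. Over genes with at least 20 normalized counts, the median log2 fold change after cisplatin was -0.58 for the 237 genes of chromosome 13, of which 77.6% passed the adjusted p-value as lower against 31.4% of all 13602 genes, and 0.27 for the 479 genes of chromosome 8, against 0.02 for all genes. On chromosome 1 the 186 genes starting between 80 and 120 Mb, an interval chosen with its values known, had a median of -0.68, and the 1197 others 0.01. The 64 genes between 80 and 100 Mb of chromosome 8, also an interval that was not fixed in advance, had a median of 0.74. The untreated lines gave -0.72 for chromosome 13, -0.86 for the interval of chromosome 1 and 0.46 for that of chromosome 8. Named genes in these regions include POSTN and CUL4A on chromosome 13 and, in the interval of chromosome 1, CCN1, LRRC8B, LRRC8C and GCLM. All of these were lower, with COL11A1 of that interval as an exception. In the interval of chromosome 8, MMP16 and CCNE2 were higher, with TP53INP1 as an exception. Elsewhere on chromosome 8, ARC was higher and CRISPLD1, SNAI2 and FZD3 were lower. Copy number was not analysed here.

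Gene length also moved with the difference. Per library, the median deviation of genes over 300 kb (333 genes) minus that of genes of 1 to 10 kb (2097 genes) from the mean of the 6 cisplatin libraries was -0.0605, -0.0649 and -0.0374 in A2780 and 0.049, 0.0878 and 0.0398 in Acis on the log2 scale. The means of -0.0543 ± 0.0147 and 0.0589 ± 0.0255 (SD, n = 3) differed by 0.113, by 0.0584 when genes with at least 10 counts were used and by 0.213 when long genes were those over 100 kb (for the main value p = 0.1 in a two-sided exact permutation test, which with 3 and 3 libraries can give no smaller value). All 3 Acis libraries lay above all 3 A2780 libraries. In the untreated libraries the order was the reverse, with 0.0893 ± 0.0125 in A2780 and -0.0894 ± 0.0519 in Acis (SD, n = 3). The median line difference after cisplatin went from -0.08 in genes of 1 to 10 kb to 0.10 at 30 to 100 kb, 0.15 at 100 to 300 kb and 0.05 above 300 kb. An interaction more positive after cisplatin was found in 3.2% of genes of 1 to 10 kb and in 35.7% of those of 100 to 300 kb, and a more negative one in 20.4% and 0.899%. REV3L (184688 bp), MMP16 (296015 bp) and FILIP1L (285703 bp) are thus long genes with a more positive difference, and FOS (3405 bp), DUSP1 (3100 bp) and PPP1R15A (3848 bp) short genes with a more negative one.

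**Figure D4:**
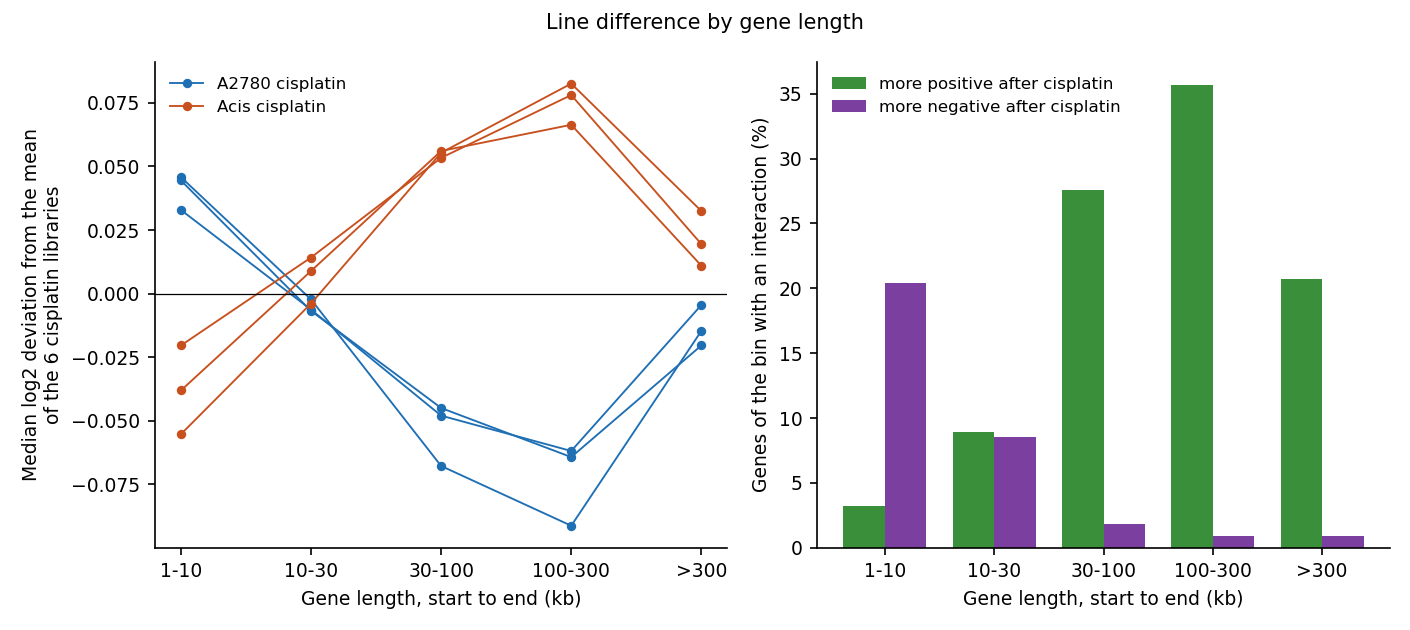
Left, median log2 deviation of each of the 6 cisplatin libraries from their mean (y axis) in 5 bins of gene length in kb (x axis), A2780 in blue and Acis in orange. Right, percent of genes in each bin whose line difference was more positive (green) or more negative (purple) after cisplatin by the interaction test. Acis libraries lie below A2780 in the shortest bin and above it from 30 kb on.

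Accessible chromatin at the starts of these genes was read from the peak lists of treated cells, 32159 peaks in A2780 and 27321 in Acis, each made from 2 replicates. With 1 list per line no test was possible. Of the 1876 lower genes with a position, 332 (17.7%) had a peak within 1000 bp of the start in A2780 only and 25 (1.33%) in Acis only. Of the 1139 higher genes, 58 (5.09%) had one in A2780 only and 113 (9.92%) in Acis only. Genes that were not called gave 3.72% and 1.51%. The lists differ in length, and with the 20000 highest peaks of each, 10.4% of lower and 2.55% of higher genes had a peak in A2780 only, and 1.6% and 12.9% in Acis only. Most called genes showed no such difference, since 769 of the lower and 486 of the higher genes had a peak in both lists and 750 and 482 in neither. Among lower genes with at most 3 reads in treated Acis, 27.9% of 516 had a peak in A2780 only and 60.9% in neither list. Genes with a peak in treated A2780 only included BST2, FOXL2, DLX5, DLX6, EPHA7, CDKN1A and TP53INP1, and genes with a peak in treated Acis only included COL12A1, COL11A1 and TBR1. Some members went against their transcript, such as EGR2 (fold enrichment 6.79), HOXC5 (3.92) and MET, which were higher in Acis and had a peak in treated A2780 only. CDKN1A, with a fold enrichment of 3.12, had one in A2780 although Acis had 253 to 298 normalized counts of its transcript, and the starts of CD36, ANKH, ATF3 and COL6A3 had no peak within that distance of the annotated start in either treated list.

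**Figure D5:**
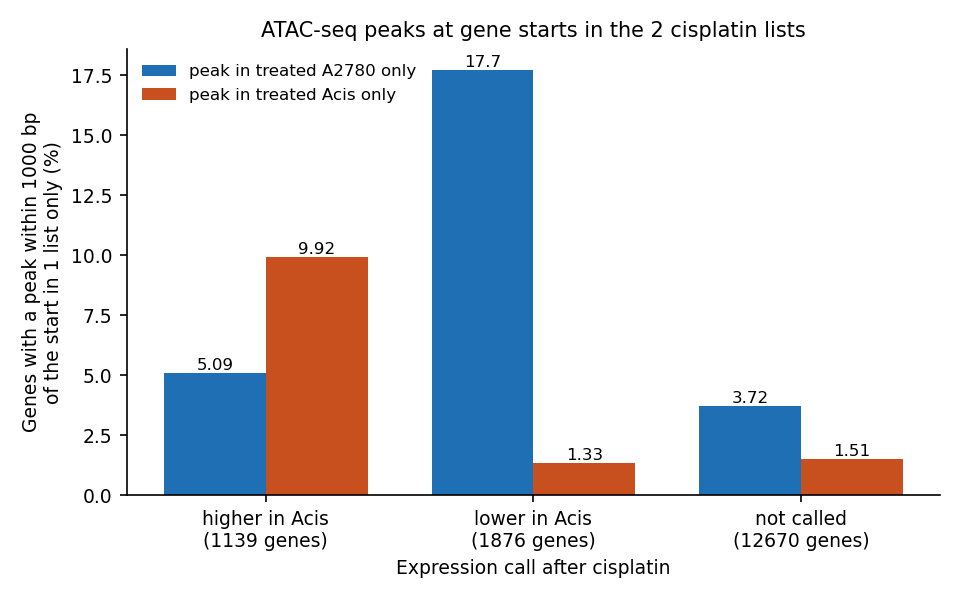
Percent of genes (y axis) with an ATAC-seq peak within 1000 bp of the start in only the A2780 (blue) or only the Acis (orange) list of treated cells, for genes called higher, called lower or not called after cisplatin. Lower genes have a peak in A2780 only more often (17.7%) than in Acis only (1.33%), and higher genes the reverse (5.09% and 9.92%). With 20000 peaks of each list the 2 larger shares are 10.4% and 12.9%.

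The lower genes also had promoters with fewer CpG dinucleotides. The median was 21 CpG per 300 bases over 1231 lower genes, 27 over 698 higher genes and 27 over 8802 genes not called, and it was 15 for the 336 lower genes with at most 3 reads in treated Acis and 29 for the 69 higher genes with at most 3 reads in treated A2780. Methylation was not analysed here, and these numbers describe the sequence only.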

How the data were processed

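Per the labels and the methods of the study, stranded total RNA was sequenced as single-end reads of 75 nt with all libraries in 1 lane, aligned with STAR 2.7.3 to hg38, freed of PCR duplicates with Picard and counted with HTSeq 0.11.1 in reverse-strand mode. The authors deposited raw counts, which were used as such. Removal of duplicates from single-end reads bounds the counts of abundant genes: 510 tested genes (3.25%) exceeded 0.25 counts per exon base in a treated group, 37 of them called. The ATAC-seq peak lists, 1 per condition, were deposited with the fold enrichment, a ratio over local background, and the -log10 p and -log10 q of MACS2. The display score of MACS2, deposited by the authors in the same lists, was not used.

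Counts were fitted in R 4.3.3 with edgeR 4.0.16 (TMM, default low-count filter, 4 groups over 12 libraries, robust quasi-likelihood test, 8 residual degrees of freedom, Benjamini-Hochberg adjustment over 15760 genes). The study used DESeq2, run here (1.42.0) as an alternative. For display, each count was divided by its library's TMM-corrected size and multiplied by the mean size, 4594673. Folds against a group without reads use a floor of 3 counts over the group, and ratio intervals are exact. These cover counting error only. Positions came from GENCODE 44, which lacks 109 identifiers, and promoters from the RefSeq table of GRCh38.p14, which is not complete. The fits were tested on simulated data.

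The members and the 26 gene lists were chosen with earlier results of these data known. Named genes are the 10 largest differences in each direction (at least 100 normalized counts, groups that do not overlap), the 5 largest interactions in each direction among called genes with the same minimum of 100, at most 5 members of each list with the smallest adjusted p-values, the real-time PCR genes and the cell markers. Other list members are named where a count of calls is spelled out, and were then chosen after their values were seen. Of the 145 genes this gives, 1 is not reported here. Same-numbered libraries did not deviate together (correlations of -0.0597, 0.0743 and -0.0901), so replicate numbers were not used to pair samples. Plots were made with Python 3.11.15 and matplotlib 3.10.9. XR-seq was not analysed here. Some members of the lists are counted but not reported here by name.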

Additional observations from a re-analysis of the deposited data

Results flagged for a closer look

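The named genes given here had a line difference (Acis minus A2780) after cisplatin that differed from the one before it, by the interaction test of edgeR at an adjusted p-value under 0.05, as did 19.1% of all tested genes. The values are differences of the log2 fold changes, with negative ones for genes that were less high or lower in Acis after cisplatin. Among immediate-early genes they were -1.62 for FOS, -1.68 for DUSP1, -1.17 for ATF3 and 0.54 for NFKBIZ. The genes of the real-time PCR gave -1.78 for EGR2, -1.37 for ARC, -1.76 for MYLIP, -1.65 for TBR1, -0.73 for OSGIN1, -0.75 for RHOV and -1.99 for SNAI1. They were chosen by the study for rising with cisplatin in A2780, a selection that favours negative values. Stress response genes gave -1.25 for PPP1R15A, -0.21 for ATF4 and -0.73 for DDIT3. Of the genes chosen for the size of the interaction alone, ANKH had -5.27, a fitted value that depends on the prior count since untreated A2780 had no read, FILIP1L 1.57, CRISPLD1 1.20, MMP16 1.16, PURPL 1.11 and ENSG00000280347 1.08.

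Repair and bypass genes gave 0.32 for ERCC4, 0.45 for FANCM, 0.28 for BARD1, 0.16 for FANCI, 0.48 for REV3L, 0.41 for HLTF, 0.45 for SHPRH and 0.26 for REV1. Transport and redox genes gave 0.16 for ABCC1, 0.47 for LRRC8B, 0.29 for the metal sensor MTF1 and 0.48 for SLC7A11. Matrix and signalling genes gave 0.73 for COL12A1, 0.67 for COL11A1, 0.54 for ACVR2B, 0.46 for BMPR2, 0.47 for DKK1 and 0.80 for FZD3. Cell cycle genes gave 0.40 for CCNE2, -0.17 for MCM7, 0.20 for TOP2A, 0.33 for TTK, 0.13 for CENPF and 0.25 for KIF11.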

How the results depend on the processing

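No line difference or interaction of a named gene changed sign under an alternative, but the balance of interactions over all genes turned round with total counts as library size. Of 3304 log2 fold changes of the 144 named genes across alternatives, 3288 kept their side of the limits, as did 799 of 880 interactions, and 2225 of 2288 counts over lists stayed within 1.5 times. SLC7A11 passed the fold limit under 7 alternatives, while DUSP1, FZD3, FZD7, FZD8 and RHOV missed it when tested against a log2 fold change of 1 by glmTreat. The interactions of CENPF, OSGIN1, ABCC1, BARD1, FANCI and RHOV were lost under 15, 14, 12, 11, 10 and 8 alternatives, that of MCM7 with DESeq2 and without Acis cisplatin replicate 2 (-0.14), those of ERCC4, MTF1 and ATF4 with DESeq2, and that of REV1 with DESeq2 and with total counts. The causes were not tested.

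DESeq2 found 1118 more positive and 330 more negative interactions, and 148 calls with an interaction against 313. With total counts as library size 1477 interactions were more positive and 1581 more negative, against 2130 and 877. Without a filter 3090 genes were lower after and 2948 before cisplatin, where more genes were tested, and with at least 50 counts, where fewer were, 556 were higher and 684 lower after, 540 and 767 before, and 1082 the same way in both states against 2468. The adjusted p-value alone gave 5024 and 4910. With 1 library left out more genes passed the low-count filter, 16060 to 16278 against 15760. Leaving out 1 library gave 1172 to 1214 higher and 1927 to 2087 lower genes after cisplatin, 1107 to 1162 and 1945 to 2028 before it, 1730 to 2181 more positive interactions and 535 (without Acis control replicate 1) to 1057 more negative ones, with 556 without Acis cisplatin replicate 2, 2527 to 2583 shared calls, 241 to 341 calls with an interaction and a length contrast of 0.0966 to 0.127. The length contrast was 0.0584 with at least 10 counts and 0.213 for genes over 100 kb. Peaks in A2780 only stood within 200 bp of 3.6% of higher and 14.7% of lower genes and within 5000 bp of 19.9% of lower genes. With the 20000 highest peaks of each list the shares were 2.55% and 10.4%, and 12.9% of higher genes had a peak in Acis only.

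A replicate block, although replicate numbers did not pair the libraries (correlations of -0.0597, 0.0743 and -0.0901), gave 1148 higher and 1882 lower genes after cisplatin, 1101 and 1917 before it, 2195 and 932 interactions and 329 calls with one. The 6 cisplatin libraries alone with the block gave 1059 and 1728. At this depth, genes with few reads were not tested.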
